A study of Mus musculus with 18 samples.

Results

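Retnla, Arg1 and Chil3 are 3 of the 32285 genes counted in single cells of mouse back skin after surgery with or without a skin expander. They were taken by symbol from all 10 mRNA libraries, and no other gene was added. The genes were chosen by an earlier reading of the same libraries, on their difference in level between the arms in macrophages. Their differences between the arms in macrophage or monocyte-like, dendritic-like and neutrophil-like cells are therefore given as descriptions, without a test. Tests are given for the same genes in other cell classes and for other genes of their pathways. The genes are often grouped as markers of alternative activation, but here they did not share a direction, and they are called by their names.

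Every mouse in the study had the surgery, with an incision near the tail from which a channel below the skin was opened as far as the neck. Only mice of the arm labelled EXP received an expander, a hydrogel that was stitched in place under the skin, and mice of the arm labelled CTRL received none. A CTRL library is thus operated skin without a stretch, not untouched skin. Each arm had 5 libraries, from day 1 and day 2 in sequencing rounds 1 and 2 and from day 4 in round 1. All mice of an arm and round were pooled in 1 tube, and antibody hashtags marked 14 mice per arm in the libraries other than day 1 round 1. The labels used here give no strain, sex or age and no genetic change.

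Retnla encodes RELMα, also called FIZZ1, a small cysteine-rich protein that macrophages and other cells secrete. Arg1 encodes arginase 1, which splits arginine into urea and ornithine and so competes with nitric oxide synthase for its substrate. Chil3 encodes Ym1, a chitinase-like lectin without chitinase activity that is secreted by myeloid cells. All 3 genes are classical targets of interleukin 4 and interleukin 13 acting through the receptor chain IL-4Rα and the transcription factor STAT6, and they are widely used together as a read-out of alternative macrophage activation in the mouse. Each also has other inputs: Arg1 responds to hypoxia and to STAT3 and C/EBPβ, and Chil3 is made by monocytes and by immature cells of the bone marrow.

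In the GRCm38 annotation GENCODE vM21, Retnla (ENSMUSG00000061100) has 4 exons and lies on the plus strand at chr16:48842551-48844461. Arg1 (ENSMUSG00000019987) has up to 8 exons and lies on the minus strand at chr10:24915221-24927484. Chil3 (ENSMUSG00000040809) has up to 11 exons and lies on the minus strand at chr3:106147554-106167564. RefSeq promoters (GRCm38.p6) were matched for Retnla and Chil3, from 250 bases before to 50 bases after the start of the gene, and they are shown because the STAT6 route to these genes is part of what groups them. The Retnla window is chr16:48842359-48842658 on the plus strand and the Chil3 window is chr3:106167515-106167814 on the minus strand. Capitals mark matches to TTCNNNNGAA, the spacing that STAT6 prefers, to TTCNNNGAA, the spacing of most other STAT proteins, to the C/EBP-type word TTGCNNAA and to TATAAA, searched on both strands.
Retnla: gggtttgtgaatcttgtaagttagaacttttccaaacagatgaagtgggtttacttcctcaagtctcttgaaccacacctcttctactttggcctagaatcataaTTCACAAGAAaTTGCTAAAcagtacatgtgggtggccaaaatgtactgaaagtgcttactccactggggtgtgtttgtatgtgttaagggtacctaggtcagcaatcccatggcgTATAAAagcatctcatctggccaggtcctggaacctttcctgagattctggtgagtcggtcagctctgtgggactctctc
Chil3: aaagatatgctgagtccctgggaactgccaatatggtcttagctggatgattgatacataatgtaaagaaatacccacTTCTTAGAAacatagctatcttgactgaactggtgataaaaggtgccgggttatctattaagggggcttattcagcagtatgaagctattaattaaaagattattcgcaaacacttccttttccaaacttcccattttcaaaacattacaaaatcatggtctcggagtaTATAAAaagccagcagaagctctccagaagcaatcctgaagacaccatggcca
In Retnla, TTCACAAGAA lies at -145 to -136 and TTGCTAAA at -134 to -127 from the RefSeq start, with 1 base between them and no overlap, and TATAAA lies at -30 to -25. In Chil3, TTCTTAGAA lies at -172 to -164, and TATAAA overlaps the annotated start, from -3 to 3. Matches of this kind are common: of 32851 promoter windows of the same length, 6.95% hold TTCNNNNGAA, 8.30% TTCNNNGAA, 10.8% TTGCNNAA and 13.6% TATAAA. A match is a description of the letters only.

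The 10 matrices held 55174 barcodes and between 17726739 and 75470722 gene UMIs (unique molecular identifiers, 1 per captured transcript molecule) per library. After filters on genes, UMIs and mitochondrial share and the removal of doublets, 45502 cells were used, 28464 of CTRL and 17038 of EXP. Any pair of libraries shared at most 0.377% of the barcodes of the smaller one. Levels are CPM, the UMIs of a gene scaled to the total UMIs of the summed cells of a class in a library. Cells of EXP were deeper, with a median of 11750 UMIs against 5976 in macrophage or monocyte-like cells. Cell names were rebuilt from marker genes and carry the word "like"; both clusters of the macrophage or monocyte-like class were enriched for 10 markers of that class. Retnla, Arg1, Chil3 and their family relatives were kept out of the genes used for clustering.

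Each of the 3 genes lay mostly in myeloid cells in the arm where it was high, and the arms differed. Retnla had 13366 UMIs in the cells of CTRL and 49 in those of EXP. Arg1 had 329 and 4827 UMIs, and Chil3 had 3127 and 21068. Of the Retnla UMIs of CTRL, 49.2% lay in macrophage or monocyte-like and 48.9% in dendritic-like cells. Of the Arg1 UMIs of EXP, 92.9% lay in macrophage or monocyte-like cells, and of the Chil3 UMIs of EXP 96.7% did. The Arg1 UMIs of CTRL lay elsewhere, with 67.5% in fibroblast-like and 4.86% in macrophage or monocyte-like cells.

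In macrophage or monocyte-like cells, Retnla in CTRL was at 322 and 323 CPM in the day 1 libraries, 624 and 48.5 CPM in those of day 2 and 835 CPM in that of day 4. The EXP libraries, in the same order, had 1.13, 2.83, 1.33, 2.34 and 0 CPM of Retnla. The arms did not overlap, and the lowest CTRL library, day 2 round 2, was still far above every EXP library. The means were 430.5 ± 304 CPM in CTRL and 1.53 ± 1.10 CPM in EXP (SD, n = 5 libraries each), a fitted log2 difference of -8.24 (SE 0.92).

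Arg1, the arginase, was at 0.971, 0.412, 0, 2.63 and 0.27 CPM in the macrophage or monocyte-like cells of the 5 CTRL libraries, in the order of day and round. In EXP, Arg1 was at 6.81 and 6.37 CPM in the day 1 libraries, 155 and 109 CPM in those of day 2 and 342 CPM in that of day 4. Each EXP library was above every CTRL library, and both day 1 libraries of EXP were far below those of days 2 and 4. The means were 0.856 ± 1.05 CPM in CTRL and 124 ± 138 CPM in EXP (SD, n = 5 each), a log2 difference of 6.37 (SE 0.72). The rise over days within EXP rests on 1 or 2 libraries a day and was not tested.

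Chil3, the Ym1 gene, was at 28.9, 35.8, 2.85, 428 and 20.8 CPM in CTRL. The EXP libraries had 1188, 263, 498, 1749 and 564 CPM of Chil3. The arms overlapped for Chil3, because CTRL day 2 round 2 was above EXP day 1 round 2, although EXP was higher in each of the 5 pairs of one day and round. The means were 103 ± 182 and 852 ± 607 CPM (SD, n = 5 each), a log2 difference of 3.58 (SE 0.92). CTRL day 2 round 2 thus had both the lowest Retnla and the highest Chil3 of the CTRL libraries.

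**Figure D1:**
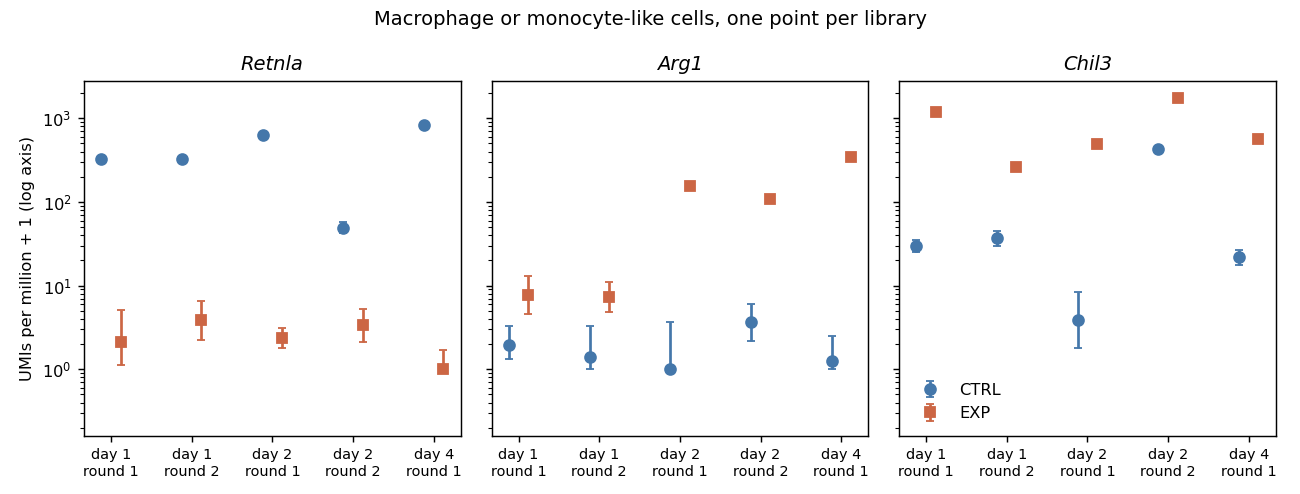
Levels of Retnla, Arg1 and Chil3 in macrophage or monocyte-like cells, as CPM plus 1 on a log axis, 1 point per library, by day and sequencing round; bars are exact 95% Poisson intervals of the count and cover counting error only. Retnla is high in CTRL, from 48.5 to 835 CPM, and at most 2.83 CPM in EXP, and Arg1 in EXP is at 6.81 and 6.37 CPM on day 1 and between 109 and 342 CPM later.

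The macrophage or monocyte-like class joined 2 clusters that the arms filled unequally. Cluster 6 was led by Cd209f, C1qa and Folr2, genes of macrophages that live in the skin, and held 85.6% of the class in CTRL (2190 cells) and 8.17% in EXP (197 cells). Cluster 3 was led by Ppbp, Ly6c2, Msr1 and Plac8, genes of monocytes and cells newly derived from them, and held 14.4% in CTRL (369 cells) and 91.8% in EXP (2214 cells). Each gene was read again within a cluster, in the libraries with at least 20 of its cells.

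Within cluster 6, Retnla differed between the arms without the other cluster. Its 5 CTRL libraries were at 334, 344, 668, 83.0 and 933 CPM, and the 3 EXP libraries, of both day 1 rounds and day 4, were at 2.09, 14.1 and 0 CPM. In cluster 3, Retnla was at most 4.00 CPM in CTRL and at most 2.42 CPM in EXP. Within this class, Retnla in CTRL thus lay in the cluster led by Cd209f, C1qa and Folr2, and it was low in the EXP cells of both clusters. The arms also filled cluster 6 with different cells. Resident macrophage-like groups 4 and 5, given below as sub-clusters, held 848 and 805 CTRL cells of the class but 11 and 12 EXP cells. The values in cluster 6 thus do not compare like cells. Of the CTRL Retnla UMIs of the class, 46.8% lay in 51 cells of a group led by Lyz1 and Ear2, given below. EXP had 1 cell of that group in the class. Dendritic-like cells, outside the class, held 48.9% of all Retnla UMIs of CTRL.

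Arg1 had the opposite place. In cluster 3, Arg1 was at 10.3, 6.72, 4.00 and 2.57 CPM in 4 CTRL libraries and at 13.7, 7.28, 155, 112 and 369.6 CPM in the 5 EXP libraries. The day 1 libraries of EXP lay next to those of CTRL, and 7.28 CPM in EXP day 1 round 2 was below 10.3 CPM in CTRL day 1 round 1, which rests on 2 UMIs in 24 cells. In cluster 6, pooled Arg1 was 0.435 CPM in CTRL and 1.55 CPM in EXP.

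Chil3 differed more between the clusters than between the arms. In cluster 3 the 4 CTRL libraries were at 729, 585, 903 and 169.6 CPM and the 5 EXP libraries at 2602, 301, 501, 1809 and 599.8 CPM. The values overlapped between 301 and 903 CPM, and in the pairs of one day and round EXP was higher in 3 of 4, with day 1 round 2 lower. The pooled levels were 711 CPM in CTRL and 769 CPM in EXP, where EXP day 2 round 1, at 501 CPM, gave 1086 of the 2214 cells. In cluster 6, pooled Chil3 was 9.58 CPM in CTRL and 31.0 CPM in EXP. The CTRL library with the most cluster 3 cells, day 2 round 2 with 220 of them, was also the CTRL library highest in Chil3.

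**Figure D2:**
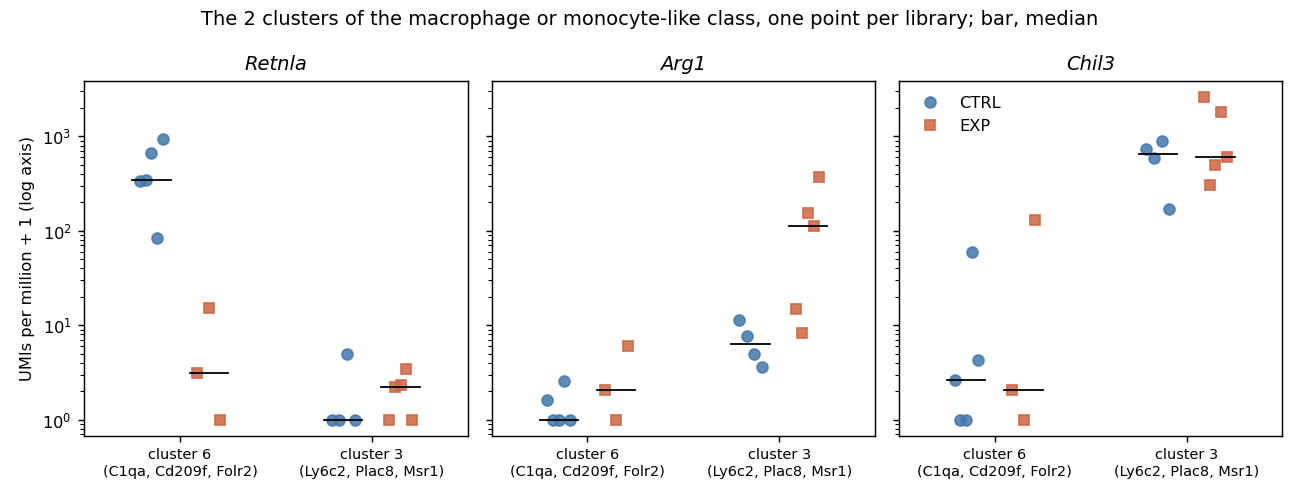
The 3 genes in the 2 clusters of the macrophage or monocyte-like class, as CPM plus 1 on a log axis, 1 point per library with at least 20 cells of the cluster; the bar is the median. Retnla separates the arms in cluster 6, Arg1 separates days 2 and 4 of EXP in cluster 3, and Chil3 is high in cluster 3 in both arms, with pooled levels of 711 and 769 CPM.

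The 10209 cells of the myeloid clusters were divided again into 18 sub-clusters, which are given by number. Pooled over the CTRL libraries, Retnla was highest in sub-cluster 2, which was led by Lyz1 and Ear2, passed no naming rule and held 55.7% of all Retnla UMIs of the arm. Its 5 CTRL libraries were at 216, 211, 792, 121 and 1995 CPM. The 953 CTRL cells had a pooled Retnla level of 790.2 CPM and the 48 EXP cells one of 6.11 CPM. The pooled rank leans on day 4, and sub-cluster 4, given next, was above sub-cluster 2 in 3 of the 5 CTRL libraries. In CTRL, 901 cells of sub-cluster 2 lay in the dendritic-like class and held 67.0% of the Retnla UMIs of that class. Another 51 lay in the macrophage or monocyte-like class and held 46.8% of the Retnla UMIs of that class, with 739 in 1 cell.

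Several other sub-clusters held Retnla in CTRL, among them the resident macrophage-like ones. Retnla in sub-cluster 4, with Cd209f and Cd209g among its leading genes, was at 272, 105, 1044, 139 and 293 CPM in CTRL. In sub-cluster 5, with Vcam1, Il10 and Igf1 among its leading genes, Retnla was at 195, 176, 61.3, 62.1 and 139 CPM. EXP held 11 cells of sub-cluster 4 and 14 of sub-cluster 5, too few for a level. Sub-cluster 11, also resident macrophage-like but with medians of 1212 and 1164 UMIs per cell in CTRL and EXP, had 662 CPM of Retnla in 196 CTRL cells and 5.37 CPM in 93 EXP cells. Sub-cluster 16, unnamed and led by the matrix genes Coch and Fmod, had 549.5 CPM in 78 CTRL cells and none in 27 EXP cells. Of its 638 Retnla UMIs in CTRL, 472 lay in the highest cell, so this level rests largely on that cell.

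Sub-clusters 9, 3 and 14, with at least 20 cells in each arm, also had more Retnla in CTRL. Sub-clusters 6 and 7 did not. They had no Retnla UMI in 86 and 27 CTRL cells, and 10 and 22 UMIs in 703 and 740 EXP cells. Sub-cluster 9 was MHC class II macrophage-like, with the early response genes Jun, Fos and Atf3 among its leading genes, and had 287 CTRL and 223 EXP cells. Its Retnla levels were 1390.1, 16.9, 30.5 and 178 CPM in 4 CTRL libraries and 0, 3.12, 0 and 0 CPM in 4 EXP libraries. The arms did not overlap, and the highest library, CTRL day 1 round 1, rests on 39 cells. Of the 543 CTRL UMIs of sub-cluster 9, 318 lay in 1 cell. Sub-cluster 3, dermal dendritic-like and led by Ccl17, had 65.4 CPM of Retnla in 539 CTRL cells and none in 394 EXP cells, at least 138-fold higher against a floor of 3 counts over the arm. Its CTRL libraries were uneven, at 484, 0, 6.23, 53.2 and 35.7 CPM, and 152 of its 395 CTRL UMIs lay in 1 cell. Cycling cells of sub-cluster 14, led by Hist1h1b and Ube2c, had 458 CPM in 125 CTRL cells and none in 23 EXP cells. Of the 893 CTRL UMIs there, 428 lay in 1 cell. A floor treats UMIs as independent of each other, so no fold is given for so few EXP cells.

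Arg1 in EXP was concentrated in sub-cluster 7, recruited macrophage-like, which held 70.5% of the Arg1 UMIs of the arm. Its leading genes were Ereg, Npy, Serpinb2 and Inhba. Arg1 there was at 9.02 CPM in the day 1 library with enough cells, round 2, at 361 and 489 CPM in the day 2 libraries and at 1133 CPM in that of day 4. The day 1 library had 249 cells of sub-cluster 7, so cells of that type were present on day 1 with little Arg1. Few mice had at least 20 cells of sub-cluster 7: 1 on day 1, at 9.04 CPM, 3 on day 2, at 284 to 464 CPM, and 2 on day 4, at 159 and 1576 CPM. Sub-cluster 8, led by Fabp4 and Tmem8 and without a name, was at 0, 90.4, 278 and 102 CPM in the same 4 libraries. Monocyte-like cells of sub-cluster 6 were lower, at 25.7, 0, 42.0, 20.8 and 22.1 CPM. CTRL had 27 cells of sub-cluster 7, with 4 Arg1 UMIs in all (17.6 CPM, exact Poisson interval 4.79 to 45.0).

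Chil3 in EXP was highest in sub-cluster 6, the monocyte-like cells, with 62.1% of the Chil3 UMIs of the arm. Its EXP libraries were at 3793, 498, 788, 2241 and 1016 CPM, and its CTRL libraries with at least 20 cells, day 2 round 2 and day 4, were at 1222 and 168 CPM. Sub-cluster 7 followed with 281, 451, 1053 and 433 CPM in EXP, and sub-cluster 8 with 298, 297, 701 and 243 CPM. In CTRL most Chil3, 63.4% of its UMIs, lay in sub-cluster 1, an unnamed group led by Atp2b4 and Nrg1. Chil3 there was at 404, 79.1, 24.8, 505 and 56.0 CPM in CTRL and at 0, 331 and 335 CPM in 3 EXP libraries, which overlapped. The resident sub-clusters 4 and 5 had at most 15.7 CPM of Chil3 in any CTRL library.

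**Figure D3:**
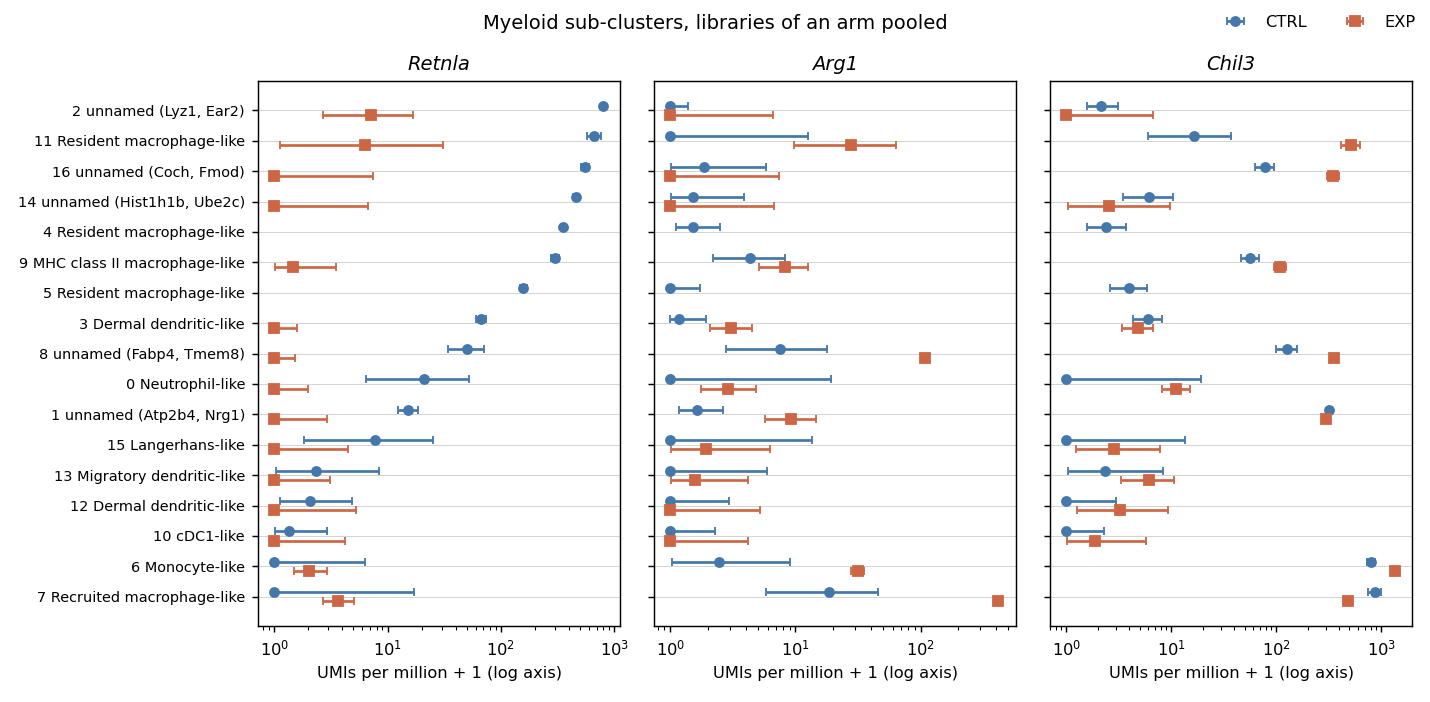
Pooled levels of Retnla, Arg1 and Chil3 in the myeloid sub-clusters, as CPM plus 1 on a log axis, with exact 95% Poisson intervals that cover counting error only; an arm with under 20 cells of a sub-cluster is not drawn. Retnla is highest in CTRL in sub-cluster 2 (790.2 CPM), Arg1 in EXP in sub-cluster 7 (415 CPM) and Chil3 in EXP in sub-cluster 6 (1362 CPM).

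Dendritic-like cells, led by Ear2, Lyz1, Mmp12 and Ccl17, had Retnla at 133, 125, 543, 52.0 and 518 CPM in CTRL. In EXP, 4 of the 5 libraries had no Retnla UMI in these cells, and day 4 had 1.65 CPM, from 4 UMIs in 1 cell. Chil3 in the same class was at 28.2, 1.18, 0, 153 and 13.5 CPM in CTRL and at 0, 9.21, 17.9, 29.0 and 98.8 CPM in EXP, which overlapped. Its fitted log2 difference of -0.88 (SE 1.15) became 0.86 without CTRL day 2 round 2. Arg1 was at most 0.719 CPM in CTRL and reached 6.72 CPM in EXP on day 2 round 1.

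Neutrophil-like cells held little of any of the 3 genes. In 1193 EXP cells there was no Retnla UMI, which allows up to 0.803 CPM, and Chil3 was at 5.57, 6.03, 5.65 and 22.7 CPM in the 4 libraries with at least 20 cells. CTRL had 106 such cells, with 4 Retnla UMIs in 1 library and no Arg1 or Chil3 UMI.

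Hashtags gave the same picture for single mice and showed its spread. A hashtag was assigned to 97.8% of the CTRL and 98.5% of the EXP macrophage or monocyte-like cells of the hashed libraries, and 13 CTRL and 12 EXP mice had at least 20 such cells. Retnla in CTRL mice ran from 2.98 to 1506 CPM with a median of 470.5 CPM. In EXP mice Retnla ran from 0 to 4.51 CPM, with a median of 0. The CTRL mouse at 2.98 CPM, of day 2 round 2, was within the EXP range, and the other 12 CTRL mice were at 30.1 CPM or more. The 4 mice of that library were at 30.1, 2.98, 231 and 102 CPM, and each of them was below all 3 mice of CTRL day 2 round 1, at 965, 630.1 and 470.5 CPM.

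Arg1 in EXP mice was at 6.71 CPM on day 1, at 116, 206 and 132 CPM on day 2 round 1, at 21.7, 126, 250.1 and 0 CPM on day 2 round 2 and at 590.4, 116, 0 and 83.8 CPM on day 4. It was at most 9.42 CPM in CTRL mice, with a median of 0. Mice of one tube thus differed in Arg1 from 0 to 590.4 CPM, and the 0 of day 4 rests on 28 cells. Chil3 ran from 0 to 608 CPM in CTRL mice and from 115 to 3024 CPM in EXP mice, with medians of 33.4 and 564 CPM. All 4 CTRL mice of day 2 round 2, at 488, 608, 325 and 79.3 CPM, were above the other CTRL mice.

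**Figure D4:**
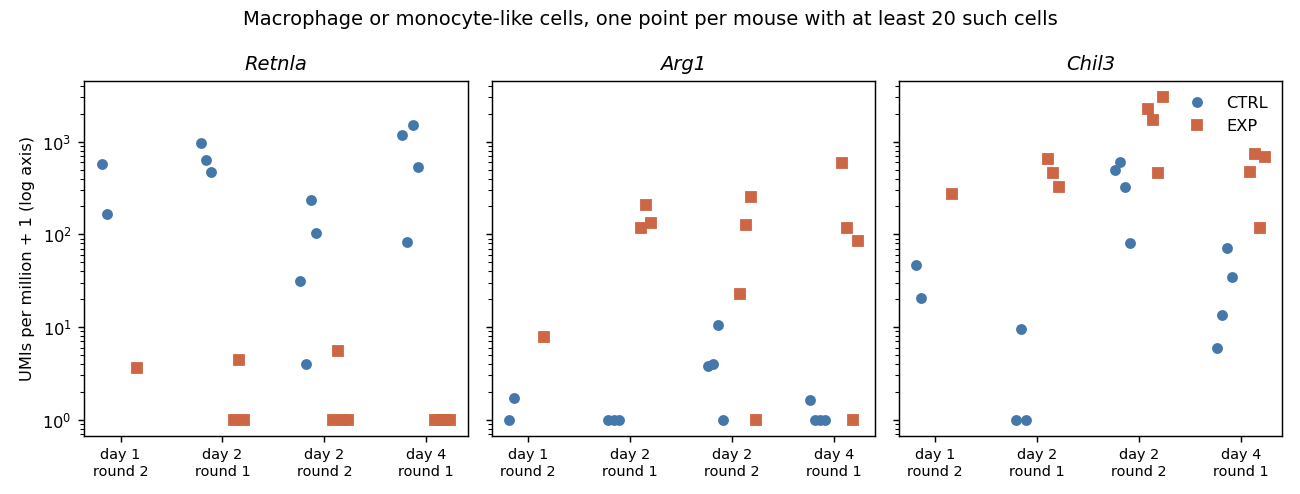
Levels of the 3 genes in macrophage or monocyte-like cells of single mice, as CPM plus 1 on a log axis, 1 point per mouse with at least 20 such cells, in the hashed libraries. Retnla separates the arms except for 1 CTRL mouse of day 2 round 2 at 2.98 CPM, and Arg1 in EXP runs from 0 to 590.4 CPM.

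Few cells carried most of the Retnla and Arg1. With each macrophage or monocyte-like cell thinned to 2000 UMIs, 6.56 ± 3.48% of CTRL cells had a Retnla UMI (SD, n = 5 libraries), 5.52 ± 4.61% of EXP cells had an Arg1 UMI and 38.6 ± 14.7% of EXP cells a Chil3 UMI. Thinning left out 308 CTRL and 114 EXP cells, and without it the shares were 8.87%, 10.3% and 55.0%. The thinned share in T cell-like cells, which should lack these genes, was 0.395% for Retnla in CTRL, 0.124% for Arg1 in EXP and 0.433% for Chil3 in EXP. Those T cell-like cells had a median of 3418 UMIs in CTRL and 4573 UMIs in EXP. In CTRL, 425 cells of any class had a Retnla UMI, and the 43 highest of them held 74.8% of all Retnla UMIs, with 830 in 1 cell. In EXP, the 55 highest of 550 Arg1-positive cells held 65.9% of the Arg1 UMIs, and the 162 highest of 1612 Chil3-positive cells held 48.7% of the Chil3 UMIs.

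Retnla was seldom seen in a cell with Chil3. After thinning, Chil3 in EXP was about as common in cells with Arg1 as in cells without it over the whole class, but not in each sub-cluster. In CTRL macrophage or monocyte-like cells after thinning, 1.97% of the Retnla-positive cells (3 of 152) and 6.19% of the Retnla-negative cells had Chil3. In EXP, 41.2% of the Arg1-positive and 39.5% of the Arg1-negative cells had Chil3 after thinning. Without thinning, where deeper cells show more of every gene, these shares were 70.6% (226 of 320) and 58.3%. Retnla and Arg1 were found in the same cell in 3 CTRL and 1 EXP cells without thinning. The 3 CTRL cells were 27.3% of the Arg1-positive cells of the arm, of which there were 11, against 8.83% of the Arg1-negative cells with Retnla. Positive cells of an arm share libraries and mice, and these shares are given without a test.

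Outside the myeloid cells the pooled levels of the 3 genes were at most 14.0 CPM in any named class with at least 20 cells in the arm, and free RNA can add to such levels. Arg1 in fibroblast-like cells was at 1.30, 3.17, 2.02, 2.75 and 1.23 CPM in CTRL and at 3.73, 6.86, 6.47, 5.26 and 1.14 CPM in EXP. EXP was higher in 4 of 5 pairs and the arms overlapped through day 4. The arms filled the class from different clusters: cluster 0, led by Mirg and Col1a2, held 53.5% of it in CTRL and 17.7% in EXP, cluster 5, led by Igfbp2 and Cadps, 18.2% and 45.9%, and cluster 28, led by Smim41 and Apod, 2.61% and 19.2%. Cluster 5 held most Arg1 UMIs of the class, 124 in CTRL and 94 in EXP. Within it Arg1 was at 4.49, 6.99, 9.96, 8.32 and 3.23 CPM in CTRL and at 5.62, 11.3, 9.64, 9.13 and 1.46 CPM in EXP, which overlapped, with EXP higher in 3 of 5 pairs. Over the whole class, the log2 difference was 0.87 (SE 0.33), and the adjusted p of edgeR's quasi-likelihood test was 0.0708 over 13202 genes, so it did not pass 0.05. With the day and round as a replicate block, the difference was 0.91 and the adjusted p 0.0346, which passes. Of the genes tested in fibroblast-like cells, 27.2% were called, 13.1% higher and 14.1% lower in EXP. Endothelial-like cells of the same libraries had 0.107 CPM of Arg1 in CTRL and 0.330 CPM in EXP, below the fibroblast-like cells in both arms. Dermal papilla-like cells had 3.24 and 5.39 CPM, from 17 and 20 UMIs, and did not pass the filter.

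Arg1 in basal keratinocyte-like cells was at 2.07 ± 1.69 CPM in CTRL and 1.88 ± 1.31 CPM in EXP (SD, n = 5 each). The log2 difference was 0.26 (SE 0.60; edgeR adjusted p = 0.816), where 11.4% of 11931 genes were called, 6.03% higher and 5.38% lower. Chil3 in fibroblast-like cells was at 0.339 ± 0.758 CPM in CTRL and 1.17 ± 1.79 CPM in EXP, a log2 difference of 2.15 (SE 0.99; edgeR adjusted p = 0.128). All 24 CTRL UMIs of that comparison came from day 2 round 2, and 16 of the 21 EXP UMIs from day 2 round 1, the libraries of their arms with 1178 and 209 fibroblast-like cells. Macrophage or monocyte-like cells of the same 2 libraries had 428 and 498 CPM of Chil3, and the part of free RNA was not tested.

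Retnla outside the myeloid cells followed the arm. It was at 0.813, 0.422, 0.476, 0.0706 and 0.424 CPM in the fibroblast-like cells of the CTRL libraries and was not seen in 1451 fibroblast-like cells of EXP, a pooled level at least 4.18-fold higher in CTRL against a floor of 3 counts. In T cell-like cells it was 1.07 CPM in CTRL and not seen in EXP, at least 3.13-fold higher. Retnla did not pass the filter on low counts in any class outside the myeloid ones, and neither of these differences was tested. Chil3 in T cell-like cells had 123 UMIs in EXP, but 107 of them lay in 3 cells of day 1 round 1 with 49, 40 and 18 UMIs. Those cells had 14489 to 24057 UMIs each, against a median of 4573 in the class.

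The genes whose levels went most closely with the 3 genes were found over 143 units of class and library, as a description without a test. The units share libraries, and cell classes of the same kind recur in them. For Retnla the closest were Cd209b (r = 0.77), Fcrls (r = 0.76), Fcna (r = 0.75), Clec4g (r = 0.70) and Lyz1 (r = 0.69), by Pearson correlation of log2(CPM + 1) over 14321 genes. For Chil3 they were Fcgr1 (r = 0.83), Ms4a4a (r = 0.82), Msr1 (r = 0.81), Ms4a8a (r = 0.81) and Tfec (r = 0.78). For Arg1 they were Prtn3, Cdk20, Apoc2, Ppbp and C1rl, with r between 0.49 and 0.55, lower than the leading values for the other 2 genes. Among themselves the 3 genes had r = -0.05 for Retnla and Arg1, 0.31 for Retnla and Chil3 and 0.51 for Arg1 and Chil3.

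Close relatives of the 3 genes had other places. Retnlg, which lies beside Retnla on chromosome 16 and encodes RELMγ, had 14632 UMIs and was a neutrophil transcript, at 2861 to 8782 CPM in the neutrophil-like cells of the EXP libraries. In macrophage or monocyte-like cells Retnlg was at most 1.91 CPM in any library. Arg2, the mitochondrial arginase, had 11400 UMIs and Chil1, a chitinase-like protein without enzyme activity, had 6359, both with high levels in neutrophil-like cells. Chit1, an active chitinase, had 1436 UMIs, Retn, the resistin gene, 282, Chil5 127 and Retnlb 15. Chil4, the nearest copy of Chil3, had 1 UMI in all cells. The last 300 bases of the 2 transcripts are 89.7% identical and share 4.06% of their 30-base words.

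Pathway genes were read from lists of alternative activation, type 2 cytokine signalling, arginine metabolism, classical activation and transcription factors, in macrophage or monocyte-like cells. By edgeR's quasi-likelihood test with Benjamini-Hochberg adjustment at 0.05, 2708 of 10820 genes were called, or 25.0%, with 11.5% higher and 13.6% lower in EXP. Without the day 4 library of CTRL 1413 genes were called, without that of EXP 1415, and with cells thinned to 2000 UMIs 1710. Of 82 listed genes 63 were tested, and 7 were higher and 24 lower, with a median log2 difference of -0.26 against 0.01 over all genes tested. Without the day 4 library of CTRL, 9 of the 31 calls were lost, and the same 9 without that of EXP: Acod1, Asl, Cd163, Clec10a, Klf4, Nfe2l2, Oat, Slc7a1 and Slc7a2. The arms filled clusters 6 and 3 unequally in this class, as given above, and gene differences between those clusters enter each of these values.

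Of 17 alternative activation genes tested beside the 3, 8 fell, 1 rose and the other 8 did not pass, and the median log2 difference was -0.89. Mgl2, a galactose-type lectin of tissue macrophages and dendritic cells, was at 363, 278, 652, 436 and 497 CPM in CTRL and at 107, 30.1, 9.12, 10.1 and 17.6 CPM in EXP. The arms did not overlap, and the log2 difference was -4.33 (SE 0.67; edgeR adjusted p = 0.00243). Ccl24, an eosinophil chemokine, fell by 2.64 (SE 0.55; adjusted p = 0.00764), and Clec10a, a related lectin, by 2.39 (SE 0.68; adjusted p = 0.0272). Il10, the anti-inflammatory cytokine, fell by 1.92 and Egr2 by 1.60, and the scavenger receptor gene Cd163 and the factors Pparg and Klf4 fell as well. Tgm2, transglutaminase 2, rose by 1.37 (SE 0.30; adjusted p = 0.00920). Mrc1, the mannose receptor, was at 2880.3 ± 355 CPM in CTRL, with a log2 difference of -0.55 and an adjusted p of 0.0513, which became 0.0386 with the replicate block.

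The receptor and signalling genes of interleukin 4 and 13 were not called in the whole class by edgeR with all libraries and day as a factor. Il4ra was at 236, 203, 176, 203 and 181 CPM in CTRL and at 348, 168, 181, 279 and 177 CPM in EXP, with a log2 difference of 0.08 (SE 0.19; edgeR adjusted p = 0.792). The differences were 0.09 (SE 0.12) for Stat6, 0.40 (SE 0.17) for Il13ra1 and -0.45 (SE 0.16; edgeR adjusted p = 0.0571) for Jak1. Jak1, a kinase of the receptor, passed with the replicate block (adjusted p = 0.0292), with DESeq2 (adjusted p = 0.0237) and without CTRL day 2 round 2. Of the 7 genes of this list that were tested, only Tslp, an epithelial type 2 cytokine, was called. It was at 63.9, 26.4, 52.8, 14.0 and 48.1 CPM in CTRL and at 9.65, 1.77, 1.61, 2.34 and 3.82 CPM in EXP, and it fell by 3.76 (SE 0.50; adjusted p = 0.00154).

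The ligands themselves came from other cells and did not pass the filter in macrophages. In EXP, 78.3% of the Il4 UMIs lay in basophil-like cells, at 975 CPM in 103 cells, and in CTRL 82.8% lay in mast-like cells. T cell-like cells held 59.6% of the Il13 UMIs of CTRL and 53.5% of those of EXP, where basophil-like cells held 25.7%. Il5 lay in T cell-like cells, with 92.3% and 96.5% of its UMIs. Il33 lay first in fibroblast-like cells, with 43.5% and 44.4% of its UMIs, at pooled levels of 6.99 CPM in CTRL and 84.0 CPM in EXP. These are pooled values without a test. Il33 was among the leading genes of fibroblast-like cluster 28, which held 2.61% of the class in CTRL and 19.2% in EXP. The part of this shift in the Il33 levels was not tested.

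Around arginase, the genes of arginine use moved in both directions: of 15 tested, 3 rose and 5 fell, with a median of -0.13. The 8 calls became 12 with the replicate block, 5 after thinning or without CTRL day 1 round 1, and 4 without the day 4 library of either arm. Arg2 was at 32.0, 47.0, 26.4, 64.8 and 28.9 CPM in CTRL and at 147, 182, 120.5, 198 and 193 CPM in EXP, without overlap. It rose by 1.99 (SE 0.26; edgeR adjusted p = 0.00145), and unlike Arg1 it was high in EXP from day 1. Asl, which releases arginine from argininosuccinate, rose by 0.69 (adjusted p = 0.0213), and the cationic amino acid transporter gene Slc7a2 rose by 2.01 (adjusted p = 0.0179) in 4 of 5 pairs. Gatm and Gamt, the pair of enzymes that make creatine from arginine, fell by 1.62 and 1.02 (adjusted p = 0.00266 and 0.0141). Sat1, a polyamine acetyltransferase, fell by 0.85, Slc7a1, another arginine transporter, by 0.64 and Oat, which uses ornithine, by 0.46. Odc1, which turns ornithine into putrescine, had a log2 difference of -0.13 (SE 0.30; adjusted p = 0.784).

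Among 14 classical activation genes tested, 2 rose and 4 fell, with a median of -0.03. Ptgs2, the inducible cyclooxygenase, was at 147, 281, 128, 457 and 270.3 CPM in CTRL and at 525, 1648, 952, 848 and 682 CPM in EXP, and rose by 1.78 (SE 0.41; edgeR adjusted p = 0.0115). Acod1, which makes itaconate, rose by 2.03 (SE 0.60; adjusted p = 0.0321), in 4 of 5 pairs. It is also a neutrophil gene, as are Arg2 and Chil1, and the neutrophil transcript Retnlg was at most 1.91 CPM in these macrophage or monocyte-like cells. The part of neutrophil RNA in the levels of Acod1, Arg2 and Chil1 was not tested. The interferon-induced chemokine Cxcl9 fell by 3.99, the scavenger receptor gene Marco by 3.24, Tnf by 1.15 and the co-stimulator gene Cd86 by 1.06. For Il1b the difference was 0.87 (SE 0.61; adjusted p = 0.316) and for Il6 0.09 (SE 0.35; adjusted p = 0.870).

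Of 12 transcription factor genes known at the Arg1 or Retnla locus or in macrophage polarisation, 8 fell and none rose, with a median of -0.66. Irf4, a partner of PU.1 that is induced by interleukin 4, was at 92.3, 80.7, 58.5, 28.0 and 43.8 CPM in CTRL and at 6.81, 13.4, 8.84, 3.27 and 6.69 CPM in EXP. The arms did not overlap, and the fall was 2.94 (SE 0.32; edgeR adjusted p = 0.00114). Myc fell by 1.21, Cebpd by 1.05 and Stat3 by 0.84, beside Pparg, Klf4, Kdm6b and Nfe2l2. Cebpb had a difference of -0.15 (SE 0.21) and Hif1a, the hypoxia factor, one of 0.62 (SE 0.25; adjusted p = 0.0909), and neither was called. With the replicate block, Hif1a passed (adjusted p = 0.0334). Of the family relatives, 2 were tested and both rose, Arg2 as above and Chil1 by 2.86 (SE 0.70; adjusted p = 0.0152).

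**Figure D5:**
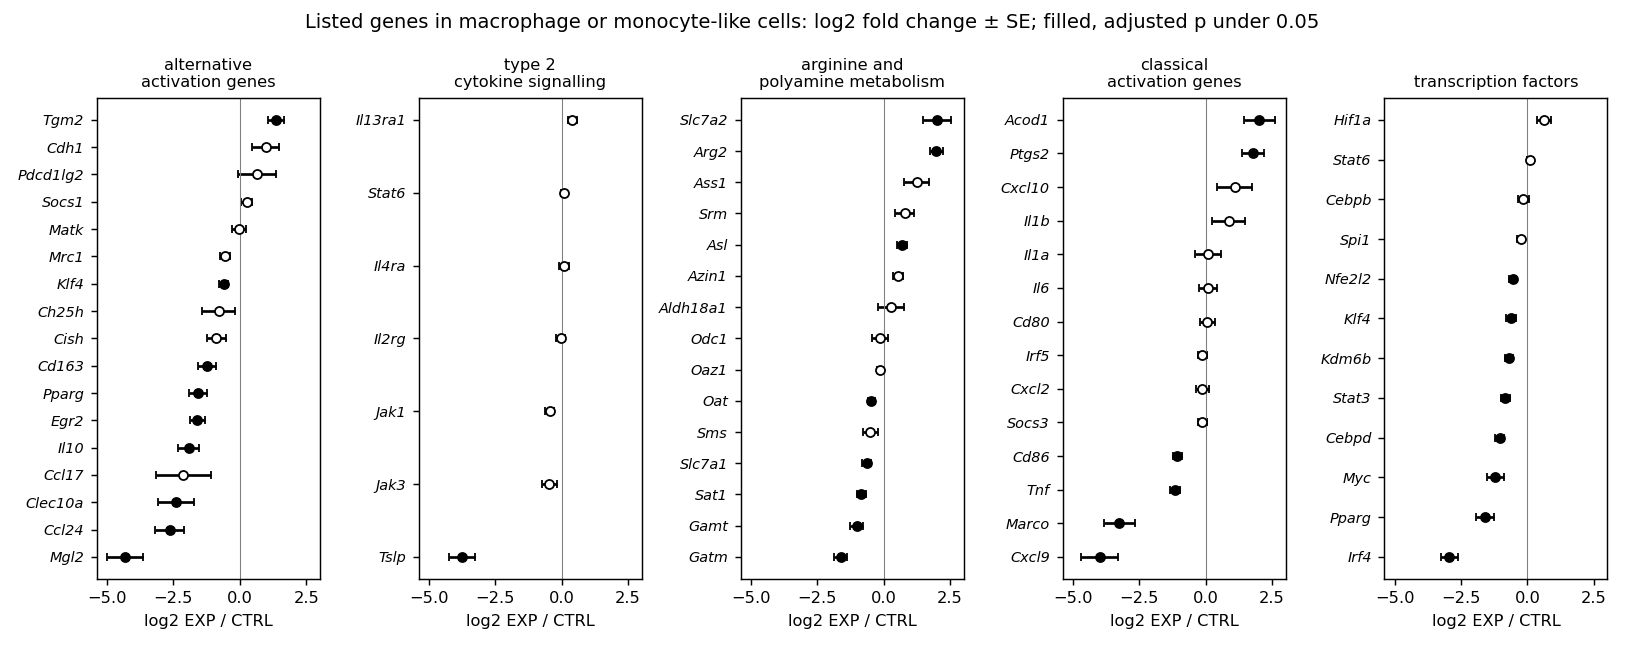
Log2 difference of EXP against CTRL with its SE for the listed genes that were tested in macrophage or monocyte-like cells, by list; filled points have an edgeR adjusted p under 0.05. Mgl2, Cxcl9, Tslp and Irf4 lie far to the left, at -4.33, -3.99, -3.76 and -2.94, and Il4ra and Stat6 lie at 0.08 and 0.09.

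After seeing the data, sub-cluster 9, MHC class II macrophage-like, was fitted alone for the listed genes, as a group that both arms held. There 114 of 5509 genes were called, and of 47 listed genes tested 1 rose and 3 fell. Mgl2 fell by 2.61 (SE 0.51; edgeR adjusted p = 0.0122) and Irf4 by 1.75 (SE 0.43; adjusted p = 0.0469). Ccl17, a chemokine induced by interleukin 4, was at 16.1 ± 16.9 CPM in CTRL and had no UMI in the EXP libraries fitted, and EXP was lower in 2 of 3 pairs (edgeR adjusted p = 0.0228). Il4ra, which was not called in the whole class, rose by 1.42 (SE 0.22; adjusted p = 0.00186), from 123 ± 31.8 to 365 ± 144 CPM. Ptgs2 (0.28), Il10 (-0.23) and Arg2 (0.95) had adjusted p-values of 0.797, 0.766 and 0.282 in these cells. In the same cells Retnla had a log2 difference of -9.20 and Chil3 one of 1.95, given as descriptions. Sub-cluster 9 was mixed, with 43 CTRL and 39 EXP cells in the dendritic-like class. Over all cells, Mgl2 was at 1393 CPM in dendritic-like and 165 CPM in macrophage or monocyte-like cells, and Irf4 at 93.4 and 27.8 CPM. Ccl17 was at 379.6 CPM in Langerhans-like and 1.46 CPM in macrophage or monocyte-like cells. The part of dendritic-like cells in the 3 falls was not tested.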

How the data were processed

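Droplet libraries of mouse back skin were sequenced from the 3′ ends of transcripts. The deposited matrices give UMI counts for each gene in each barcode, without normalization. The authors ran Cell Ranger 6.1.2 and used the mouse build mm10, per the submitters' processing notes. The count files span 10 mRNA libraries, and hashing antibody counts lie in the same matrices. The members and lists were chosen with earlier results of these data known.

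A barcode was kept if it had 200 genes and 500 UMIs or more and a mitochondrial share of UMIs no higher than 10%. Scrublet marked 0.0292% to 2.96% of the cells of a library, and 1.25% to 2.96% in libraries over 5000 cells. These and cells with more than 1 hashtag were removed. Cells were clustered with scanpy 1.11.5 and leidenalg 0.10.2 (2000 variable genes, 30 components, 15 neighbours, resolution 1) into 38 clusters. A cluster was named where it was enriched for enough of the markers of 1 class, and 8 clusters with 6707 cells stayed unnamed. Rebuilt names can differ from those of the study. HTODemux (Seurat 5.3.0, quantile 0.99) assigned hashtags. The cluster named Langerhans-like held 318 type 1 dendritic-like and 212 migratory dendritic-like cells of other sub-clusters. Retnla, Arg1 and Chil3 did not pass the filter there, so no test of them is given, but its libraries were among the 143 units of the similar genes.

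UMIs were summed per class and library, for classes with at least 20 cells in at least 4 libraries per arm. They were tested with edgeR 4.0.16 in R 4.3.3 (TMM, filterByExpr, quasi-likelihood test, day as a factor), with Benjamini-Hochberg adjustment over all genes tested. On counts simulated for the macrophage or monocyte-like comparison (10492 genes), 40% of log2 changes of 1 and 100% of log2 changes of 2 were recovered, and 2.1% of calls were false. The simulation gave every gene the same spread, had no day effect and placed changes only in well counted genes. These rates need not hold for the real counts. Libraries pool mice, and p-values measure the spread between libraries. Intervals are exact 95% and, like floors of 3 counts, cover counting error only. Per the labels, round numbers mark a shared sequencing round. The differences between rounds correlated between the arms with 0.27 on day 1 and 0.19 on day 2 over 10115 genes, so the pairing was fitted as an alternative block.

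Beside the 3 genes, the text names per list up to 5 called genes with the largest change that agreed in every pair, uncalled genes by role, the 5 most similar genes, and relatives with at least 10 UMIs. Further listed genes, such as Slc7a2, Acod1, Tgm2 and Oat, were named after their values were seen. Alternatives were RLE scaling, no filter, DESeq2 1.42.0, the block, each library left out, thinning to 2000 UMIs, resolution 2, and at most 20% mitochondrial UMIs.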

Additional observations from a re-analysis of the deposited data

Results flagged for a closer look

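Of 23 groups of libraries or mice that were checked for a value far from the rest, 6 had one. The rule would flag about 1 in 20 groups of normally spread values, which these levels need not be, so no excess is claimed. It always flags a group with only 1 value above 0, as for Retnla in EXP dendritic-like cells and Arg1 in CTRL mice of day 4. Chil3 in CTRL macrophage or monocyte-like cells was far higher in day 2 round 2, at 428 CPM, than in the other CTRL libraries, and the same library was far above the rest for Chil3 in dendritic-like cells, at 153 CPM. Arg1 in EXP dendritic-like cells was highest in day 2 round 1, at 6.72 CPM, and Retnla in the same cells of EXP was seen only in day 4, at 1.65 CPM. Among CTRL mice of day 2, Arg1 in macrophage or monocyte-like cells was highest in mouse 3 of round 2, at 9.42 CPM. Among CTRL mice of day 4, mouse 1 was the only one with Arg1 there, at 0.616 CPM.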

How the results depend on the processing

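In macrophage or monocyte-like cells Retnla, Arg1 and Chil3 kept their direction under every alternative run, with log2 differences of -8.76 to -7.2, 5.21 to 8.13 and 3.04 to 5.05. The count of called genes, 2708, was 1710 with cells thinned to 2000 UMIs, where fewer genes were tested, 3331 with the replicate block, 3130 with DESeq2, 3381 without a filter and 1413 to 3199 with 1 library left out; the lowest were without CTRL day 4 (1413) and EXP day 4 (1415). In sub-cluster 9 alone, with fewer cells, it was 114. The 31 listed genes called became 22 to 42 under the same alternatives and 4 in sub-cluster 9. Arg1 in fibroblast-like cells passed the threshold without a filter (0.84, adjusted p 0.0267) and with the replicate block (0.91, adjusted p 0.0346), and Chil3 there without a filter (2.16, adjusted p 0.0185); the cause was not tested. Estimates for Arg1 in basal keratinocyte-like cells changed sign, within a range of -0.09 to 0.60 with 1 library left out: -0.09 without CTRL day 4, -0.03 without EXP day 1 round 1 and -0.09 without EXP day 4. Chil3 in dendritic-like cells, -0.88, became 0.13 with the replicate block and 0.86 without CTRL day 2 round 2, the end of a range from -1.88 with 1 library left out. The replicate block changed no other call of the 3 genes. Without thinning, 10.3% of EXP cells had Arg1 and 55.0% had Chil3. Of the 5 most similar genes, Spearman correlation shared 2 for Retnla, 0 for Arg1 and 3 for Chil3. Depth limits single-mouse values, some of which rest on few cells.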
